A study of Mus musculus with 3 samples.

Results

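Serum amyloid A genes (Saa1, Saa2, Saa3 and Saa4), the lipocalin gene Lcn2, the orosomucoid genes (Orm1, Orm2 and Orm3) and haptoglobin (Hp) were followed through single-cell RNA profiles of mouse liver. These 9 of the 32285 genes in the count table were found by their symbols in the feature list. The members were selected on their UMI levels and shares of positive barcodes in these 3 libraries, so those levels and their ratios are given as a description, without a test. The study profiled liver cells of male C57BL/6 mice aged 9 weeks with the droplet-based 10x Genomics 3' method, in which each unique molecular identifier (UMI) stands for 1 captured transcript end. There was 1 library for each of 3 genotypes. All 3 shared homozygous loss of Ifih1, which encodes MDA5, a sensor of double-stranded RNA, and all carried Alb-Cre, a recombinase driven by the albumin promoter in hepatocytes. They differed at Adar1, the gene of an RNA-editing enzyme, whose floxed allele Cre can delete: on the Ifih1-/- Alb-Cre+ background the mice were Adar1wt/wt, Adar1wt/flox or Adar1flox/flox. The libraries with these labels are called wt/wt, wt/flox and flox/flox, and where 3 values stand together they follow this order. Livers were dissociated by collagenase perfusion, and cells were collected by low-speed spins and a Percoll gradient after red cell lysis. The labels do not say how many animals went into a library, so no value has a replicate check, and every interval below is a 95% interval for counting error alone.

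The acute phase response is the switch by which hepatocytes, prompted mainly by the cytokines IL-6 and IL-1, alter the plasma proteins they secrete during infection or injury. STAT3, NF-kappaB and C/EBP factors carry the signal to the promoters, and glucocorticoids often strengthen it. Saa1 and Saa2 proteins travel on high-density lipoprotein, Lcn2 withholds siderophore-bound iron from bacteria, orosomucoids are acid glycoproteins that bind basic and steroid-like ligands, and haptoglobin captures free haemoglobin.

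The serum amyloid A genes lie together on chromosome 7 within 42.3 kb, and the orosomucoid genes on chromosome 4 within 21.3 kb. In mm10 coordinates Saa3 (ENSMUSG00000040026) occupies chr7:46711998-46715700, Saa4 (ENSMUSG00000040017) chr7:46727998-46732603, Saa1 (ENSMUSG00000074115) chr7:46740497-46742980, all 3 on the minus strand, and Saa2 (ENSMUSG00000057465) chr7:46751790-46754313 on the plus strand. Orm1 (ENSMUSG00000039196) lies at chr4:63344560-63348163, Orm3 (ENSMUSG00000028359) at chr4:63356162-63359511 and Orm2 (ENSMUSG00000061540) at chr4:63362449-63365878, all on the plus strand. Lcn2 (ENSMUSG00000026822) lies at chr2:32384633-32388252 and Hp (ENSMUSG00000031722) at chr8:109575128-109579172, both on the minus strand.

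Promoter windows are shown for the members whose levels differed most between libraries, because acute phase factors act there and because the neighbouring copies can be compared base by base. Each window of 190 bases runs from 250 to 61 bases before the gene's start in RefSeq (GRCm38.p6), 5′ to 3′ on the gene's strand. Capitals mark a match to the C/EBP motif TTGCNNAA on either strand. The windows are chr7:46743041-46743230 for Saa1 (minus strand), chr7:46751583-46751772 for Saa2 (plus), chr4:63362199-63362388 for Orm2 (plus) and chr4:63355908-63356097 for Orm3 (plus). For Lcn2 a stretch of 30 bases around the match is shown, chr2:32387937-32387966 (minus), since 139 of the 190 bases of its window belong to an exon of another annotated Lcn2 transcript.
Saa1: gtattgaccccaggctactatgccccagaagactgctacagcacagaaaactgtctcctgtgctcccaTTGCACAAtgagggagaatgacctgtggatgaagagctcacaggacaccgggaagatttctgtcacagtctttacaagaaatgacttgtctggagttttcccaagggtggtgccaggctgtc
Saa2: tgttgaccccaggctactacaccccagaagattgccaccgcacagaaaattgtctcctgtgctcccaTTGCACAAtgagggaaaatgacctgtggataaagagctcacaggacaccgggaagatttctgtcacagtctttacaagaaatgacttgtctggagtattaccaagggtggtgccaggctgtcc
Lcn2: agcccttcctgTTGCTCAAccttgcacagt
Orm2: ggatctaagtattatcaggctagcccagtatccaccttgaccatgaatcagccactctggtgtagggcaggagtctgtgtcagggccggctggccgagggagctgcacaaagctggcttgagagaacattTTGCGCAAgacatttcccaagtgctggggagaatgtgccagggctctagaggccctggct
Orm3: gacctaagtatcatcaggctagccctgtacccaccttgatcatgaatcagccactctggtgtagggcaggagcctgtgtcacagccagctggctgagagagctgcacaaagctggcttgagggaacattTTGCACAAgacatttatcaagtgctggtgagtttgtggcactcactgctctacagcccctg

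RefSeq promoters matched 7 of the 9 members, and all 7 windows held a C/EBP match, against 7.77% of the 32851 mouse promoter windows of this length. The match began 182 bases before the start in Saa1, 183 in Saa2, 216 in Lcn2, 120 in Orm2 and 121 in Orm3. In Saa3 it began 99 bases before the start, with the letters TTATGCAA, and in Saa4 245 bases before it, with the letters TTGCCAAA. An interferon regulatory factor motif (GAAA, any 2 bases, then GAAA, on either strand) was in the Saa3 and Saa4 windows and in 2.34% of all windows. None of the 7 held the STAT motif TTCNNNGAA (5.51% of all windows) or a kappaB motif (5.42%). No overlap between motif matches occurred in these windows. Saa1 and Saa2 windows were identical at 93.2% of aligned positions (178 of 191), and Orm2 and Orm3 windows at 84.0% (163 of 194).

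Near-identical copies matter for counting. Full-length Saa1 and Saa2 transcripts were 93.9% identical, but 0 of the 311 stretches of 90 bases in the last 400 bases of Saa1 occurred in Saa2. Orm1 and Orm2 transcripts were 91.0% identical and shared 67 of 311 such stretches (21.5%), so how reads were divided between Orm1 and Orm2 is uncertain. Orm3 shared 0 of 311 with either.

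The targeted gene was examined first. In hepatocyte-like barcodes Adar had 82, 123 and 293 UMIs, which is 10.3, 16.7 and 35.1 CPM (UMIs of the gene per 1000000 UMIs of the class in that library). It was highest in the library labelled flox/flox, against that label. A 3' tag can lie outside the deleted part, and the floxed exons are not given in the sources used here, so the level checks nothing. Ifih1 had 0, 1 and 0 UMIs among all kept barcodes, where a count of 0 allows up to 0.311 CPM in wt/wt and 0.284 in flox/flox. The libraries held 9744380 to 10756790 UMIs in 10000 barcodes each, and between 20 and 32 barcode sequences recurred between any pair of libraries. After filtering, 8364, 7533 and 7925 barcodes were hepatocyte-like (median 825, 862 and 904 UMIs), and 1514, 2387 and 1847 belonged to other classes. The median mitochondrial share of kept barcodes was 4.86%, 4.07% and 7.05%. All 5 hepatocyte-like and all 14 other clusters, immune ones included, carried at least 11 of the 12 hepatocyte markers in most of its barcodes, so hepatocyte-like barcodes cannot be told apart from droplets of free hepatocyte RNA. In summed values, fewer producing cells and less RNA per cell cannot be told apart either.

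Levels in hepatocyte-like barcodes ranged from 0.126 CPM for Orm3 in wt/wt to 1295 CPM for Orm1 in wt/flox. Hp and Orm1 were at the top, Saa4 followed, and Orm3 was at the bottom in every library. The order changed between libraries at a few places. In wt/wt Hp (936 CPM) stood above Orm1 (721), whereas Orm1 stood above Hp in wt/flox and flox/flox. Lcn2 was at 3.66 CPM (2.45 to 5.25) in wt/wt, where it could not be separated from Orm2 at 4.16 (2.87 to 5.85), and in flox/flox, at 32.8 CPM, it stood above Orm2 (17.5) and Saa3 (11.7). These are UMI levels, 1 count per transcript end whatever its length, and capture can differ between genes. The plot of member levels gives every library beside the others.

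**Figure D1:**
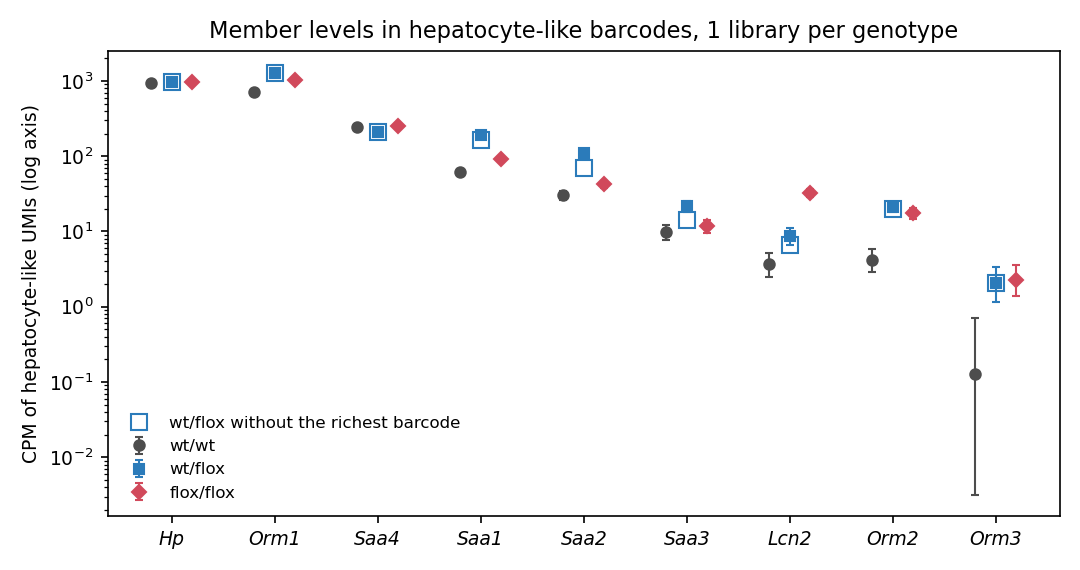
Level of each member in hepatocyte-like barcodes in CPM (log axis), 1 point per library, with exact 95% Poisson bars where they exceed the symbol; open squares give wt/flox without the barcode richest in members. Hp lies between 936 and 980.1 CPM in all 3, Saa1, Saa2 and Orm1 are highest in wt/flox, and Lcn2 is highest in flox/flox (32.8 CPM).

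Saa1, a major acute phase serum amyloid A, had 494 UMIs (62.3 CPM, 56.9 to 68.1) in the wt/wt library, 1410 (192, 182 to 202) in wt/flox and 760 (91.1, 84.7 to 97.8) in the flox/flox library. The wt/flox library was the highest and wt/wt the lowest, and no interval overlapped another. The log2 ratio over wt/wt was 1.62 (1.47 to 1.77) for wt/flox and 0.55 (0.38 to 0.71) for flox/flox. Saa2, its close copy, had 239 UMIs (30.1 CPM), 823 (112) and 354 (42.4), the same order. Its log2 ratios over wt/wt were 1.89 (1.68 to 2.11) and 0.49 (0.25 to 0.74). A single wt/flox barcode, described below, carried 38.6% of that library's Saa2, and without it the wt/flox levels were 162 CPM (153 to 172) for Saa1 and 68.7 (62.9 to 75.0) for Saa2, both still above the other libraries. A Saa1 UMI was found in 5.26%, 13.8% and 7.87% of hepatocyte-like barcodes, and in 5.13%, 13.1% and 7.61% once every barcode was thinned to 1000 UMIs (2397, 2360 and 2944 barcodes, with 5967, 5173 and 4981 shallower ones left out). T or natural killer-like barcodes, which should lack the gene, had it in 1.92% (0.398 to 5.52), 12.8% (8.60 to 18.1) and 6.61% (3.90 to 10.4) when thinned, and these wide intervals overlapped the hepatocyte-like ones in all 3 libraries. In all other classes together the thinned shares were 2.97% (1.91 to 4.38), 9.21% (7.67 to 10.96) and 4.23% (3.10 to 5.62), and in wt/flox and flox/flox their intervals lay below those of hepatocyte-like barcodes (11.8 to 14.5% and 6.68 to 8.63%). The higher Saa1 and Saa2 levels of flox/flox over wt/wt were not seen among the barcodes richest in the nuclear RNAs Malat1 and Neat1, where the log2 ratio of Saa1 was 0.05 and that of Saa2 -0.88.

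Saa3, which macrophages and other non-hepatic cells also make, had 78, 158 and 98 UMIs, at 9.84 (7.78 to 12.3), 21.5 and 11.7 (9.54 to 14.3) CPM. Without the single barcode wt/flox stood at 14.2 CPM (11.6 to 17.2), so that its interval overlapped both others. Saa4, the constitutive family member that responds little to inflammation, had 1965 UMIs (248 CPM), 1533 (209) and 2083 (249.7). It was lowest in wt/flox, where Saa1 and Saa2 were highest. Its log2 ratio was -0.25 (-0.35 to -0.15) for wt/flox over wt/wt and 0.01 (-0.08 to 0.10) for flox/flox over wt/wt. Among the 4 genes of the cluster, the acute members Saa1 and Saa2 and the constitutive Saa4 therefore ranked the libraries differently.

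Lcn2 had 29, 64 and 274 UMIs, at 3.66, 8.71 (6.70 to 11.1) and 32.8 (29.1 to 37.0) CPM. Among the 9 members it was the one whose flox/flox level was the highest with an interval clear of both other libraries. It stood 8.98-fold above wt/wt (log2 ratio 3.17, 2.61 to 3.77). Over wt/flox the log2 ratio was 1.92 (1.52 to 2.33), and 2.33 (1.88 to 2.80) without the single barcode, which held 16 of the 64 wt/flox UMIs. A Lcn2 UMI was found in 0.335%, 0.637% and 3.17% of hepatocyte-like barcodes. Thinned to 1000 UMIs the shares were 0.292%, 0.720% and 3.26% (2.65 to 3.97), the same order. In T or natural killer-like barcodes (median 975, 964 and 965.5 UMIs) the unthinned shares were 0, 0.388% and 1.66%, where 0 of 336 barcodes allows a share of up to 0.893%. Thinned, they were 0, 0.948% and 1.95% (0.635 to 4.48), so the wt/wt and wt/flox shares in hepatocyte-like barcodes were not separable from background, and the flox/flox share lay above it with an overlapping interval. In all other classes together, neutrophil-like barcodes included, the thinned flox/flox share was 1.41% (0.792 to 2.32), below the hepatocyte-like interval. Of the barcodes with Lcn2, 1 of 28, 2 of 48 and 14 of 251 held more than 1 UMI, so most flox/flox barcodes with the gene held a single UMI of it.

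The orosomucoid genes were lowest in wt/wt. Orm1, the most abundant of the family, had 5720 UMIs (721 CPM, 703 to 740.4), 9521 (1295, 1269 to 1321) and 8581 (1029, 1007 to 1051), and no interval overlapped another. Its log2 ratio over wt/wt was 0.84 (0.80 to 0.89) for wt/flox and 0.51 (0.46 to 0.56) for flox/flox. Orm2 had 33 UMIs (4.16 CPM), 157 (21.4) and 146 (17.5), or log2 ratios over wt/wt of 2.36 (1.81 to 2.95) in wt/flox and 2.07 (1.52 to 2.66) in flox/flox. The interval of its log2 ratio of flox/flox over wt/flox, -0.29 (-0.62 to 0.05), included 0. Orm3 had 1, 15 and 19 UMIs, with log2 ratios over the 1 wt/wt UMI of 4.02 (1.32 to 9.41) and 4.17 (1.52 to 9.55). Orm3 was found in 0.0120%, 0.186% and 0.240% of hepatocyte-like barcodes, and its intervals of 1.14 to 3.37 CPM in wt/flox and 1.37 to 3.56 in flox/flox overlapped.

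Hp had 7420 UMIs (936 CPM, 915 to 957), 7206 (980.1, 958 to 1003) and 8081 (969, 948 to 990.1), and a UMI of it was in 56.1%, 58.5% and 58.0% of hepatocyte-like barcodes. The flox/flox interval overlapped both others, whereas those of wt/wt and wt/flox did not overlap. The log2 ratio was 0.05 (0.00 to 0.10) for flox/flox over wt/wt, 0.07 (0.02 to 0.11) for wt/flox over wt/wt and -0.02 (-0.06 to 0.03) for flox/flox over wt/flox. The sign of the first ratio varied over the alternatives run, from -0.07 with at most 20% mitochondrial UMIs to 0.15 with hepatocytes chosen without clustering.

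Counted over the 9 members, 7 were at least 1.5-fold higher in wt/flox than in wt/wt, all but Saa4 and Hp, and 0 were lower. Of the 11480 genes with enough UMIs, 10.5% were that much higher and 6.74% that much lower. The members' median log2 ratio was 1.25, and 0.84 without the single barcode, where 6 members were at least 1.5-fold higher and Saa3 was not. For flox/flox over wt/wt, 3 members were at least 1.5-fold higher (Lcn2, Orm2 and Orm3) and 0 lower, against 14.3% and 7.66% of 11485 genes. Their median log2 ratio was 0.51. For flox/flox over wt/flox, Lcn2 was the 1 member at least 1.5-fold higher, while Saa1, Saa2 and Saa3 were lower, against 12.9% and 10.3% of 11488 genes. That median was -0.29, or -0.16 without the single barcode, where Saa3 no longer passed. The median of all genes lay between 0.03 and 0.08 in the 3 comparisons. The comparisons share libraries, and the members were chosen with these values known, so nothing is read from their counts beyond the counts. The plot of log2 ratios sets the comparisons side by side.

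**Figure D2:**
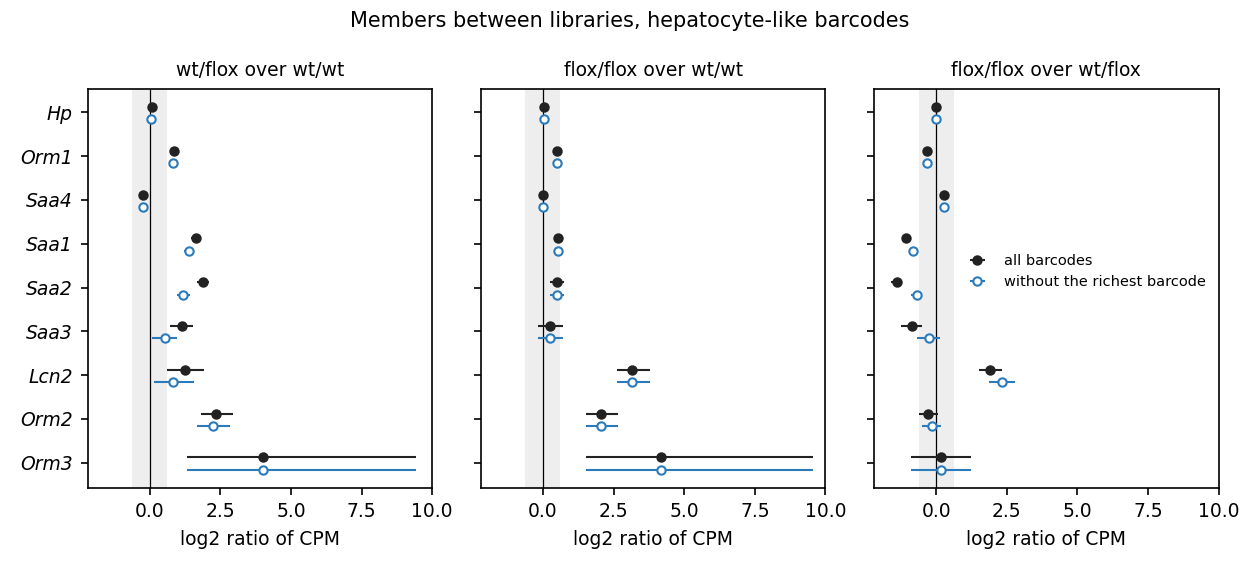
Log2 ratio of CPM between libraries in hepatocyte-like barcodes, filled for all barcodes and open without the single richest barcode, with exact 95% counting intervals; the grey band marks less than 1.5-fold either way. Lcn2 lies far to the right in both flox/flox panels (3.17 and 1.92), whereas Saa1 and Saa2 lie to the left in flox/flox over wt/flox (-1.07 and -1.40).

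The single wt/flox barcode was extreme in these genes. It held 5708 UMIs, 0.561% of them mitochondrial, and 737 of them (12.9%) came from members: 219 Saa1, 318 Saa2, 54 Saa3, 2 Saa4, 16 Lcn2, 77 Orm1, 13 Orm2, 0 Orm3 and 38 Hp. Relative to the other hepatocyte-like barcodes of its library, its level was 810.45-fold higher for Saa2, 668-fold for Saa3, 429-fold for Lcn2, 237-fold for Saa1 and 116-fold for Orm2. Orm1 was 10.5-fold and Hp 6.82-fold higher, while albumin, with 65 UMIs, was at 0.546 of the level elsewhere. The pentraxin gene Apcs (serum amyloid P), an acute phase gene of mice, was 28.4-fold higher, with 8 UMIs. The chemokine gene Cxcl9, singled out after its values were seen, had 112 UMIs there and 101 in all the rest of the library's hepatocyte-like barcodes. Ubd, Ifitm2, Ifitm3 and Iigp1, also singled out after their values were seen, were 1287-, 6.73-, 4.76- and 2.86-fold higher there. Markers of neutrophils (S100a8) and Kupffer cells (Clec4f, Cd163) were at 0 UMIs in it. Ifit1 and Socs3 were also at 0. In wt/flox they stood at 12.9 and 19.7 CPM, too low for a UMI to be likely among 5708, so these zeros say little. Doublets were not removed, and whether this barcode holds 1 cell was not tested.

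Other barcodes rich in Saa1 and Saa2 were few, and the library that held most of them depended on the cut. Barcodes with at least 10 UMIs of the pair numbered 0, 2 (the single barcode included) and 6, and the 6 of flox/flox held 10.7% of its Saa1 and Saa2 UMIs. With at least 5 UMIs they numbered 6, 7 and 13, and with at least 3 UMIs 16, 46 and 35, highest in wt/flox. The richest flox/flox barcode had 29 Saa1 and 21 Saa2 UMIs among 1655, with 4 of Lcn2. In wt/flox the counts were higher at the low end: 1213 barcodes had exactly 1 UMI of the pair and 159 had exactly 2, against 590 and 35 in wt/wt and 732 and 74 in flox/flox. The variance of Saa2 per barcode divided by its mean was 1.20, 124 and 3.13, and that of Saa1 was 1.33, 35.0 and 2.55. The high wt/flox values of both depended on 1 barcode. With the barcode highest in the gene left out of each library, the ratio was 1.15, 1.18 and 2.01 for Saa2, 1.25, 1.20 and 1.51 for Saa1 and 0.997, 1.04 and 1.10 for Lcn2. The plot of Saa1 plus Saa2 per barcode shows both ends of the distribution.

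**Figure D3:**
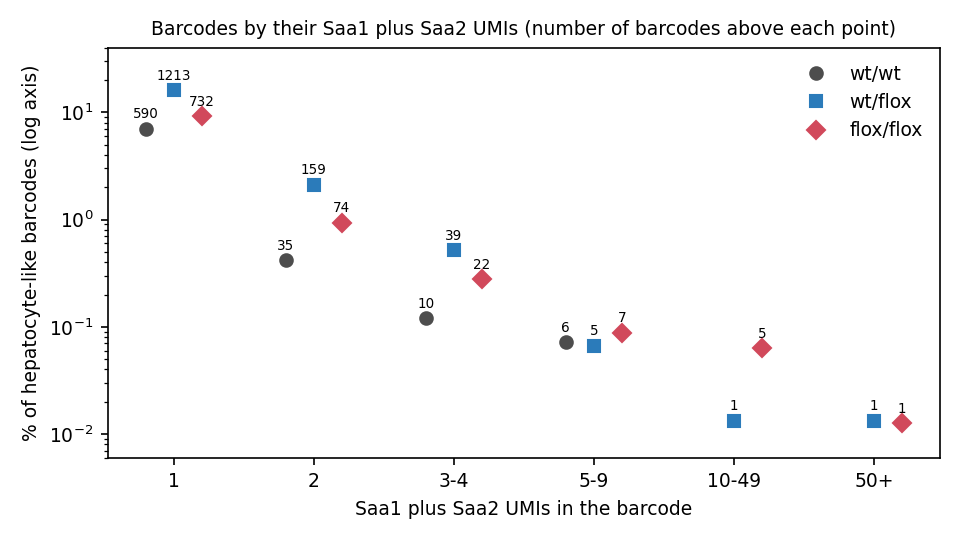
Percentage of hepatocyte-like barcodes (log axis) by the number of Saa1 plus Saa2 UMIs they hold, with the number of barcodes above each point. The wt/flox points lie highest from 1 to 4 UMIs, whereas 5 of the 6 barcodes with 10 to 49 UMIs are from flox/flox.

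Members were then set beside each other within barcodes thinned to 1000 UMIs. In flox/flox, 28 barcodes held both Saa1 and Saa2, 3.61 times (2.40 to 5.21) the 7.76 given by the product of their shares. The same ratio was 1.43 (0.97 to 2.02) in wt/flox and 2.24 (0.90 to 4.61) in wt/wt. Saa1 and Lcn2 were together in 2, 5 and 16 barcodes, 5.57 (0.674 to 20.1), 2.25 (0.729 to 5.24) and 2.19 (1.25 to 3.56) times the product. For Saa1 and Orm2 the ratios were 5.31 (1.10 to 15.5), 1.68 (0.839 to 3.01) and 2.41 (1.10 to 4.58), and for Saa2 and Orm2 they were 7.14 (0.865 to 25.8), 1.42 (0.462 to 3.32) and 4.12 (1.66 to 8.50). For Saa1 and Saa2 the flox/flox interval lay above that of wt/flox, and the wt/wt interval overlapped both. The intervals of the 3 libraries overlapped for each of the pairs with Lcn2 or Orm2. For abundant members the large shares limit how far this ratio can rise, so their values cannot be set against those of the rare pairs. Hp and Orm1 were together 0.98, 1.01 and 1.01 times as often as the product of their shares, and Saa4 and Hp 1.03, 1.00 and 0.99 times. The ratios describe barcodes of 1 library each.

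Outside the hepatocyte-like barcodes, Hp, Orm1, Saa4 and Saa1 were present at the level of other hepatocyte secretory RNAs, taken here as the level of free RNA. It was read from 7 hepatocyte secretory genes (Alb, Apoa1, Apoc3, Ttr, Serpina1c, Fgb and Ahsg), whose level in all other classes together was 42.7 to 63.3% of that in hepatocyte-like barcodes in wt/wt, 43.5 to 67.8% in wt/flox and 38.8 to 54.9% in flox/flox. Hp stood at 51.5%, 53.3% and 41.8%, Orm1 at 55.2%, 54.5% and 48.9%, Saa4 at 54.1%, 59.6% and 48.7%, and Saa1 at 57.3%, 47.6% and 43.8%. All lay inside the range of the secretory genes. Saa2 in wt/flox, at 29.8%, lay below it, with the single rich barcode in the denominator. Saa2 in wt/wt, at 38.9% (23.3 to 61.4), was under it with an overlapping interval. Saa3 stood at 71.4%, 44.0% and 87.8% and Orm2 at 84.4%, 65.6% and 46.1%, with wide intervals that overlapped the range. Orm3 had too few UMIs to be placed. Lcn2, at 592%, 248% and 99.7%, stood above the range. In T or natural killer-like barcodes a UMI of Hp was found in 44.3%, 42.1% and 37.5%, of Orm1 in 39.9%, 56.3% and 49.3%, and of Saa1 in 2.68%, 10.7% and 4.49%. Differences between libraries were present there too: over all other classes the wt/flox over wt/wt log2 ratio was 1.35 for Saa1 and 0.83 for Orm1.

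Lcn2 in neutrophil-like barcodes stood above the secretory range in all 3 libraries. Neutrophils store the protein in their specific granules. With 36, 41 and 46 UMIs in 83, 162 and 55 barcodes, the level was 522, 283 and 981 CPM, and 16.9%, 15.4% and 25.5% of these barcodes held it. Neutrophil-like barcodes, 0.840%, 1.63% and 0.563% of kept barcodes, carried 54.5%, 33.9% and 13.3% of all Lcn2 UMIs of their library. Hepatocyte-like barcodes carried 43.9% (31.7 to 56.7), 52.9% (43.6 to 62.0) and 79.0% (74.3 to 83.1). In wt/wt this interval overlapped that of the neutrophil-like class (41.8 to 66.9), so no main holder could be named there. In flox/flox the hepatocyte-like class held most Lcn2 UMIs. The class was 84.7%, 75.9% and 81.1% of kept barcodes, so its flox/flox share of Lcn2 UMIs was near its share of barcodes.

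Neutrophil markers in hepatocyte-like barcodes were measured beside Lcn2. The 12 neutrophil markers other than G0s2, which hepatocytes also express, summed to 10.3, 41.3 and 6.23 CPM there, lowest in flox/flox, with 8, 8 and 6 of them detected. Mmp8, Ngp, Ltf and Camp were at 0 in every library, and Cxcr2 and Mmp9 also in flox/flox. G0s2 alone was at 18.5, 84.1 and 161 CPM. S100a8 was at 2.77, 14.1 and 2.16 CPM there and at 12203, 11142 and 14307 CPM in neutrophil-like barcodes. The part of neutrophil RNA in the Lcn2 level of hepatocyte-like barcodes was not tested. Of the 251 flox/flox hepatocyte-like barcodes with Lcn2, 1 also held S100a8 or S100a9. In the classes other than hepatocyte-like and neutrophil-like, Lcn2 had 1, 16 and 27 UMIs (0.610, 6.41 and 12.4 CPM), again lowest in wt/wt and highest in flox/flox.

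Among the other class and library pairs, 24 for each gene, 2 more values had an interval wholly above the secretory range: Saa1 in conventional dendritic-like barcodes and Saa4 in plasmacytoid dendritic-like barcodes, both of wt/wt. Saa3 was not above it in any class of sufficient size. Monocyte or macrophage-like barcodes, under 50 in wt/wt, held 1, 5 and 11 Saa3 UMIs, in flox/flox of a total of 121. These UMIs were 1.11% (0.0281 to 6.04), 2.73% (0.893 to 6.26) and 9.09% (4.63 to 15.7) of their library's Saa3. The class was 0.324%, 1.65% and 0.757% of kept barcodes, and was too small in wt/wt to be set beside the secretory range. The plot of other classes shows Lcn2 leaving the grey range in neutrophil-like barcodes.

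**Figure D4:**
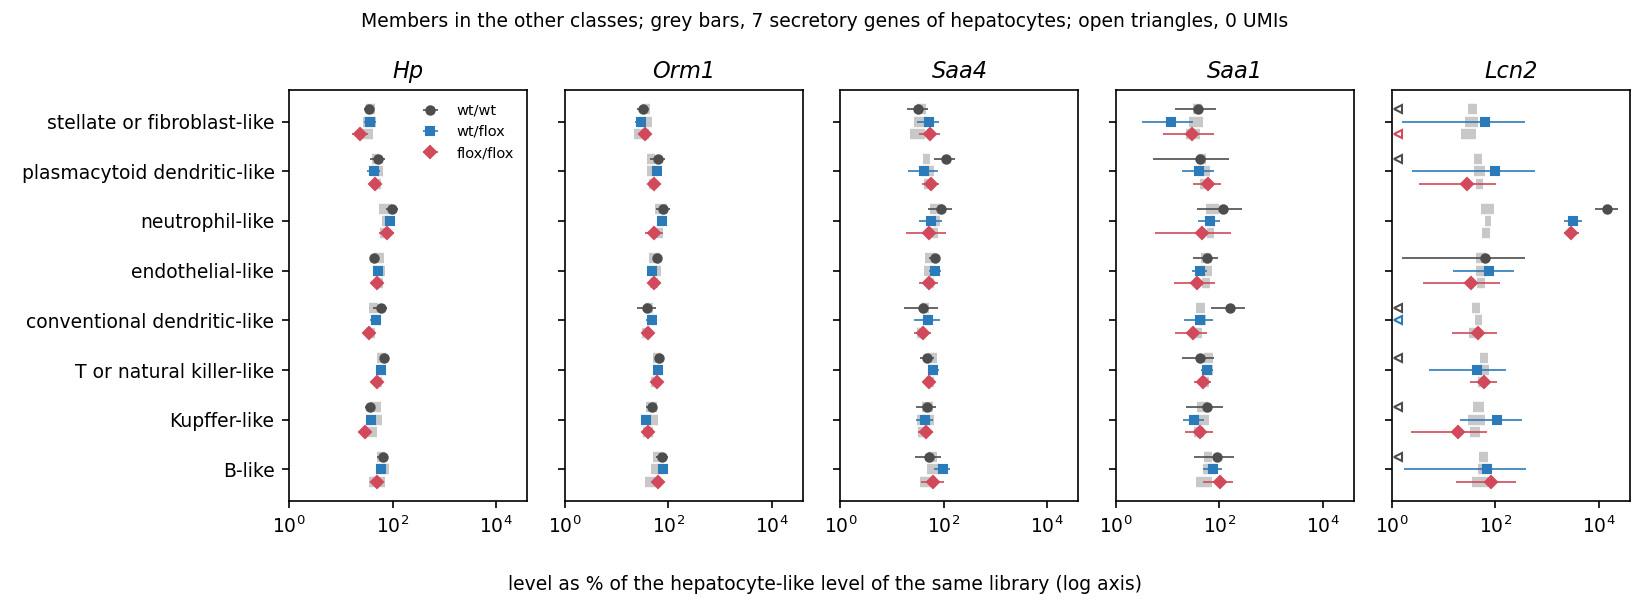
Level of 5 members in each other class as a percentage of their hepatocyte-like level in the same library (log axis), with 95% counting intervals; grey bars span 7 hepatocyte secretory genes and open triangles mark 0 UMIs. Hp, Orm1, Saa4 and Saa1 mostly lie on the grey bars, whereas Lcn2 in neutrophil-like barcodes lies far above them in all 3 libraries.

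Hepatocyte-like barcodes fell into 5 clusters, formed without the members among the variable genes. Cluster 0, led by mitochondrial transcripts, held 1563, 1226 and 3285 barcodes, and cluster 5, led by nuclear RNAs such as Neat1, held 1124, 925 and 941. Since the clusters differ in size between libraries, levels were compared within each, without the single rich barcode. Lcn2 was higher in flox/flox than in both other libraries in 5 of 5 clusters, at 16.8 to 41.0 CPM against 4.98 to 9.55 in wt/flox and 2.77 to 5.70 in wt/wt. Saa1 was highest in wt/flox in 5 of 5 clusters (147 to 204 CPM), with flox/flox (77.6 to 127) above wt/wt (56.4 to 78.6) in each. Orm1 and Orm2 were above wt/wt in both other libraries in 5 of 5 clusters. Orm3 had the same order, but on very few UMIs. In cluster 0 it had 0, 1 and 7 UMIs, and the 0 of wt/wt allowed up to 2.56 CPM, above the 0.868 CPM of wt/flox. Saa4 was higher in flox/flox than in wt/flox in 5 of 5, whereas Saa3 and Hp had no order that held in all clusters. Hp in flox/flox was above wt/wt in cluster 0 (1217 against 1055 CPM). It was below wt/wt in clusters 1 (596 against 773), 2 (813 against 896), 3 (842 against 954) and 5 (973 against 1183). The part of cluster sizes in the summed Hp ratio near 0 was not tested. Mitochondrial share differed between libraries, and its part in these values was not tested. With at most 20% mitochondrial UMIs, the Lcn2 log2 ratio of flox/flox over wt/wt was 3.23. The plot of levels by cluster gives 4 members.

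**Figure D5:**
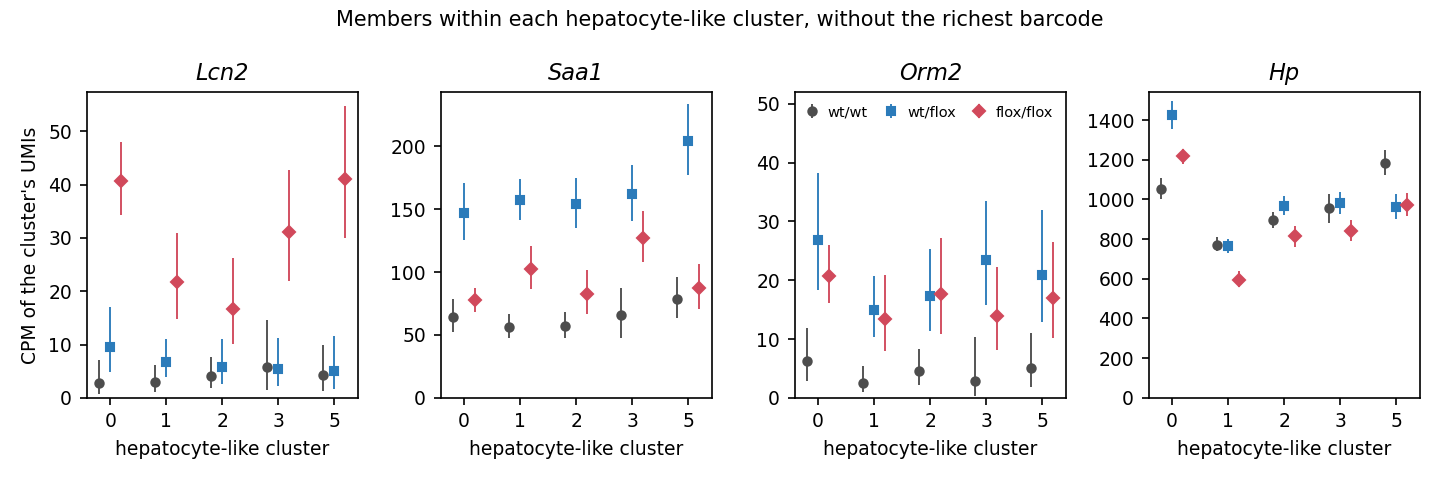
CPM of Lcn2, Saa1, Orm2 and Hp within each of the 5 hepatocyte-like clusters (numbered 0, 1, 2, 3 and 5), 1 point per library with exact 95% Poisson bars, without the single richest barcode. Lcn2 is highest in flox/flox and Saa1 in wt/flox in every cluster, while Hp has no such order.

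Position along the liver lobule was approximated by each barcode's share of 8 pericentral genes among the UMIs of 8 pericentral and 9 periportal genes, in 3 bins of nearly equal size per library. The bins are ranges of a score and not cell types. The log2 ratio of the pericentral over the periportal bin was 0.03, 0.01 and 0.08 for Saa1 and -0.10, -0.01 and -0.23 for Hp. In flox/flox, Lcn2 was lower at the pericentral end, at 27.5 CPM (21.7 to 34.5) against 41.8 (34.6 to 49.9) at the periportal end, a log2 ratio of -0.60 (-1.03 to -0.17). Saa4 and Saa2 leaned the other way in this library, where their ratios were 0.42 (0.27 to 0.57) and 0.47 (0.08 to 0.87) on the log2 scale. In wt/wt and wt/flox those of Saa4 were -0.12 and -0.03. The periportal bin of flox/flox had a median mitochondrial share of 9.14% against 7.46% in the pericentral bin, and the part of this in the Lcn2 difference was not tested.

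Other acute phase proteins, 29 of 30 of which were measured, differed between libraries in small numbers. Over wt/wt, 5 were at least 1.5-fold higher and 3 lower in flox/flox, with a median log2 ratio of 0.19, beside 14.3% higher and 7.66% lower among all genes. Ceruloplasmin (Cp), a copper-carrying ferroxidase, was at 447, 595 and 803 CPM, and Apcs at 38.0, 50.3 and 69.6, both highest in flox/flox. The hepcidin copy Hamp2 went from 277 CPM in wt/wt to 153 and 100.0, and Serpina1b, an antitrypsin gene, had a log2 ratio of -0.97 over wt/wt in flox/flox. In wt/flox, 1 of the 29 was higher and 3 lower (10.5% and 6.74% of all genes), with a median of 0.10. Fibrinogen Fgb was at 2132, 2573 and 1897 CPM and C-reactive protein Crp, which is only weakly inducible in mice, at 272, 280.3 and 348. Negative acute phase proteins, whose genes are turned down in inflammation, had medians of -0.20 in flox/flox and -0.14 in wt/flox over wt/wt, with 0 higher and 1 lower of 14 in the first and 1 and 0 in the second. Albumin's log2 ratios were -0.22 and -0.44.

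The cytokines that induce the members differed in how far they were detected. Among all kept barcodes Il6 had 0, 1 and 0 UMIs and Il22 had 0 in each library, where a count of 0 allows up to 0.311 CPM in wt/wt. Il1b had 115, 245 and 55 UMIs, of which neutrophil-like barcodes held 53, 118 and 27. It was lowest in flox/flox, the library with the most Lcn2 in hepatocyte-like barcodes. Its level in neutrophil-like barcodes was 768, 813 and 576 CPM. Il1a had 30, 39 and 16 UMIs, most often in endothelial-like barcodes. In hepatocyte-like barcodes 2 of the 13 inducing cytokines, Il1b and Il18, had enough UMIs to be measured.

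Targets and feedback genes of STAT3 and NF-kappaB were mostly higher in wt/flox, the library with the most Saa1 and Saa2. Of 18 measured members of 20, 10 were at least 1.5-fold higher and 2 lower (Nfkbia and Il1r1) in wt/flox over wt/wt, with a median log2 ratio of 0.60 (all genes: 10.5% higher, 6.74% lower). Socs3, the feedback inhibitor that STAT3 induces, had 14, 145 and 17 UMIs (1.77, 19.7 and 2.04 CPM), a log2 ratio of 3.48 (2.69 to 4.39). The neutrophil chemokine gene Cxcl1 was at 13.1, 41.1 and 9.11 CPM and Bcl3, a nuclear partner of NF-kappaB, at 19.3, 41.6 and 14.0. In flox/flox over wt/wt the same list had 3 higher and 1 lower (all genes: 14.3% and 7.66%), with a median of -0.01, beside log2 ratios of 3.17 for Lcn2 and 2.07 for Orm2.

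The receptors and transducers of the inducing signals were also counted. Of 23 measured members of 26, 0 were higher and 4 lower in wt/flox over wt/wt, where 6.74% of all genes were lower. In flox/flox over wt/wt 1 was higher and 0 lower, where 14.3% of all genes were higher. The interleukin-6 receptor gene Il6ra was at 62.6, 17.4 and 76.2 CPM and the interleukin-1 receptor gene Il1r1 at 42.4, 14.6 and 66.4, both lowest in wt/flox. Stat3 was at 136, 106 and 90.5 CPM, and Cebpb, whose protein binds C/EBP motifs, at 465, 280.5 and 431. Glucocorticoid target genes were mostly lower in wt/flox: 9 of 12 were lower and 0 higher than in wt/wt, with a median log2 ratio of -1.11, beside 6.74% lower among all genes. Among them the metallothionein gene Mt1 was at 3222, 249.6 and 3074 CPM and the co-chaperone gene Fkbp5 at 71.4, 16.3 and 174. Some members of the same lists were instead highest in wt/flox. Among them Il6st was at 32.9, 37.9 and 34.5 CPM, Lifr at 145, 184 and 121, Nr3c1 at 76.6, 93.3 and 75.0 and Dusp1 at 90.6, 133 and 94.5. Whether any of these levels bears on Saa1 and Saa2 was not tested.

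Type I interferon response genes were, like Lcn2, highest in flox/flox. All 26 measured members were at least 1.5-fold higher in flox/flox than in wt/wt, with a median log2 ratio of 2.50, and 16 of 26 were higher in wt/flox, with a median of 0.79. Among all genes 14.3% and 10.5% were that much higher. By library, the nearest genes to Lcn2 among 6115 genes, by distance in the 2 log2 ratios over wt/wt, were Ifi27, Trim30d, Rtp4, Irf7 and Asic5, at distances of 0.203 to 0.427. Ifi27, which interferon induces, was at 51.8, 109.8 and 431 CPM, a log2 ratio of 3.05 in flox/flox and 1.08 in wt/flox. Without the single rich barcode the 5 nearest were Ifit1, Isg15, Trim30d, Irf7 and Ifi27, at distances of 0.143 to 0.266, so Rtp4 and Asic5 dropped out. Within barcodes the relation was looked at separately. In thinned flox/flox barcodes Lcn2 was found in 3.49% (2.14 to 5.34) of those with 0 UMIs of the interferon list, 3.97% (2.75 to 5.53) of those with 1 and 2.79% (2.03 to 3.75) of those with 2 or more. These 3 intervals overlapped. Among wt/flox barcodes Saa1 was found in 13.7%, 12.4% and 12.7% of the same ranges.

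The nearest genes to Saa1 were Rnd3, Foxa1, Rnf152, Zfp36l1 and Id3, at distances of 0.0840 to 0.204. Without the single rich barcode they were Zfp36l1, Mup11, Foxa2, Rnd3 and Id3, at 0.0501 to 0.187, so Foxa1 and Rnf152 dropped out. Rnd3 was at 10.2, 29.8 and 14.6 CPM and Foxa1, a liver transcription factor, at 7.06, 23.8 and 10.4. Orm2 had no near neighbour: the closest was Onecut1, another liver transcription factor, at a distance of 0.705, with 14.6, 89.4 and 39.0 CPM, followed by Dusp6, Serpina12, G0s2 and Tsku, and the same 5 genes were nearest without the barcode. For Hp, whose log2 ratios lay near 0, Fastkd1, Crls1, Hnrnpu and Tbck lay within 0.00563, and of these Fastkd1 was among the 5 nearest without the barcode.

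Receptors that take up the members' products covered a wide range of levels. Of the 16 receptors and clearance partners, 6 were measured in hepatocyte-like barcodes, and 2 were at least 1.5-fold higher in flox/flox than in wt/wt and 0 lower, beside 14.3% and 7.66% of all genes. Lrp1, a broad endocytic receptor of hepatocytes, was at 169.6, 180.4 and 145 CPM, and Scarb1, the high-density lipoprotein receptor, at 51.8, 36.7 and 46.3. Cd36, a scavenger receptor that serum amyloid A can bind, was at 4.41, 5.44 and 26.5 CPM, and the iron exporter gene Slc40a1 at 49.1, 74.1 and 100.3. Cd163, the macrophage receptor for haptoglobin bound to haemoglobin, had 109, 143 and 131 UMIs, of which Kupffer-like barcodes held 77, 123 and 107 (386, 381 and 342 CPM). The lipocalin receptor gene Slc22a17 had 4, 13 and 9 UMIs and the formyl peptide receptor gene Fpr2, a receptor of serum amyloid A, 21, 24 and 22. The neutrophil granule list had 5 of 14 genes measured in hepatocyte-like barcodes, 2 higher and 1 lower in flox/flox over wt/wt and 3 higher and 0 lower in wt/flox over wt/wt, where 14.3% and 10.5% of all genes were higher.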

How the data were processed

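Single-cell RNA libraries of mouse liver, 1 for each of 3 Adar1 genotypes, were analysed from the deposited UMI counts, whole numbers per gene and barcode written by Cell Ranger 6.1.1, per the file headers. The submitters' processing notes name mm10 and Seurat. The library of each barcode was read from its numeric suffix. No scaling of the deposited counts is stated, and the table holds 10000 barcodes per library.

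Barcodes with at least 500 UMIs, 250 genes and at most 40% mitochondrial UMIs were kept (9878, 9920 and 9772). They were scaled to 10000, log-transformed and clustered in scanpy 1.11.5 with leidenalg 0.10.2 (2000 variable genes without the members, 30 components, 15 neighbours, resolution 1), and non-hepatocyte clusters were clustered again. A cluster was named when at least 3 markers were 4-fold higher than in the rest and found in 5% of its barcodes, with at least 1 among its 10 leading genes; 1 mitotic cluster stayed unnamed. No doublet caller was run, so doublets remain.

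UMIs were summed per class and library and given as CPM. Levels carry Poisson, shares Clopper-Pearson and ratios conditional binomial intervals, all exact, at 95% and for counting error only. In counts of members and in the alternatives a gene under 3 UMIs was set to 3, except in the alternative with a floor of 1 count. Intervals, and the Orm3 ratios beside the levels, use the counts as they are. A gene with 20 or more UMIs in the 3 libraries together was taken as measured and counted as higher or lower at 1.5-fold. Classes needed 50 barcodes in every library. With 1 library per genotype there is no test and no p-value. Named genes were all 9 members, members of 9 lists, and the 5 genes nearest to Lcn2, Saa1, Orm2 and Hp among those with at least 300 UMIs; 1 of the genes nearest to Hp is not reported here. Members and lists were chosen with earlier results of these data known. Of the 32285 gene IDs, 32158 matched the GENCODE annotation of mm10, which gave the coordinates; promoter sequences are from RefSeq (GRCm38.p6). Ratios were tested on simulated data. Alternatives were other UMI and mitochondrial limits, scaling, clustering, floors and subsets of barcodes; leaving out the single richest barcode and thinning for ratios, and leaving out each library's highest barcode for the variance, were chosen after seeing the data. Further tools were biopython 1.88, matplotlib 3.10.9, pandas 2.3.3, scipy 1.17.1 and numpy 2.4.6 under Python 3.11.15.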

Additional observations from a re-analysis of the deposited data

How the results depend on the processing

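No paired analysis was possible because each genotype has 1 library; for the same reason no library could be left out and no value has a replicate error. Over the alternatives, 69 counts of members stayed within 1.5 times and 3 did not. Members at least 1.5-fold lower went from 0 to 1 in flox/flox over wt/wt among the fifth of barcodes richest in Malat1 and Neat1 (Saa2), and, with a minimum of 2000 UMIs, from 3 to 6 in flox/flox over wt/flox and from 0 to 1 in wt/flox over wt/wt. Of the levels of single members, 26 moved and 1 did not, and of their shares of hepatocyte-like barcodes with a UMI, 10 moved and 17 did not. Of the log2 ratios of single members, 218 moved by less than their counting interval, 94 moved by more and 4 of those at least 1.5-fold reversed. Among ratios under 1.5-fold, 24 of 154 values also changed sign, 12 of them for Hp and 1 for Saa2 (-0.88 in flox/flox over wt/wt, among the barcodes richest in Malat1 and Neat1). Of the 4, Orm3 in flox/flox over wt/wt was -0.046 when barcodes needed 1000 UMIs, which comes from the floor of 3 counts: 0 UMIs in wt/wt and 4 in flox/flox were left. Lcn2 in flox/flox over wt/flox was -0.61 with a minimum of 2000 UMIs, where all 16 wt/flox UMIs came from the single rich barcode. Without it Lcn2 was at 0, 0 and 40.7 CPM (118, 104 and 374 barcodes, wt/wt first). Saa3 among the barcodes richest in Malat1 and Neat1 was 0.34 in flox/flox over wt/flox and -0.10 in wt/flox over wt/wt, and the cause was not tested. The Lcn2 ratio of flox/flox over wt/wt was 2.27 with hepatocytes chosen without clustering. With a minimum of 2000 UMIs, or without the 1% of barcodes with the highest counts of the gene, wt/wt held 0 Lcn2 UMIs, so 2.09 and 5.76 are lower bounds set by the floor. Over the other alternatives it lay between 3.10 and 3.67. Depth limits Orm3, Orm2, Saa3 and Lcn2 in wt/wt, each with under 100 UMIs.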
